A study of Mus musculus with 12 samples.

Results

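The response of kidney tubular epithelial cells to 48 h of TGFβ was read from 6 of the 12 libraries of the series, 3 treated with TGFβ at 10 ng/mL and 3 untreated controls, chosen by their labelled treatment. The cells were im-TEC, a mouse tubular epithelial line that grows while a temperature-sensitive SV40 large T antigen is switched on by interferon-gamma at 33 °C. All groups had first spent 7 days at 37 °C without interferon-gamma, which lowers large T activity, and all came from cells whose maintenance medium held serum, insulin, transferrin, selenite, triiodothyronine, hydrocortisone and epidermal growth factor. The other 6 libraries were the same line treated with the nicotinamide N-methyltransferase (NNMT) inhibitor 5-amino-1-methylquinolinium at 50 µM, without or with TGFβ, and are used here only to ask whether the TGFβ effect was the same when that inhibitor was present. The labels do not say whether replicates were separate cultures, so p-values measure the spread between these libraries, which may be technical, and all come from 1 immortalized line whose controls also carry large T.

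TGFβ is secreted in a latent form, tethered to matrix or cell surface by latency proteins, and is released by integrins and proteases. Active ligand joins type II and type I receptor kinases, which phosphorylate SMAD2 and SMAD3, and these enter the nucleus with SMAD4 and induce, among their targets, their own inhibitors. BMPs use related receptors and SMAD1, SMAD5 and SMAD9, whose best known targets are the Id genes. In tubular epithelium TGFβ is known for driving matrix synthesis, contractile gene expression and loss of transport functions.

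Libraries were made from the 3′ ends of polyadenylated transcripts, so counts do not scale with transcript length, and levels are given as CPM, counts per 1000000 counts of the library after trimmed-mean scaling. Levels summed over a list are counts per 1000000 counts without that scaling. Controls held 7936902 to 9458864 counts in genes. TGFβ replicates 1, 2 and 3 held 9300982, 11866903 and 2584117, so that 3 counts in a single library correspond to 0.322, 0.253 and 1.16 CPM. The floor used for a gene at 0 was 3 counts over the 3 libraries of a group together. TGFβ replicate 2 stood apart. Set against TGFβ replicates 1 and 3, its counts gave chi-square statistics of 40.8 and 31.6 for each degree of freedom, against 6.24 between replicates 1 and 3 and 3.23 to 6.68 between controls. That statistic grows with depth, and replicate 3 was shallow. The median absolute difference in log2 CPM was 0.308 and 0.399 between replicate 2 and replicates 1 and 3. It was 0.242 between replicates 1 and 3, and 0.130 to 0.148 between controls. The biological coefficient of variation was 0.227 in the TGFβ group and 0.0657 in the controls. Reads outside annotated genes made up 25.6 to 26.1% of counts in the controls and 21.2 to 22.8% with TGFβ.

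The label of tubular epithelium was checked against marker genes. Kidney epithelial genes were present: the cadherins Cdh16 and Cdh6 had 5782 and 25120 counts in the controls, the lineage factors Pax8 and Pax2 6003 and 7887, and keratin Krt8 1701. The general epithelial markers Epcam and Cdh1 had 0 and 1. Of 14 proximal tubule markers 3 had enough counts to test, with Slc34a1, Slc13a1 and Kap at 0 in all 6 libraries, and segment markers of the loop, distal tubule and collecting duct such as Umod, Calb1, Aqp3 and Foxi1 were also at 0. Some markers of other kidney cells were at 0 in all 6 libraries as well: Nphs1 of podocytes, Pdgfra and Lum of fibroblasts, Cdh5 and Kdr of endothelium, and Adgre1 of macrophages. Other members of these lists were present. Of 10 podocyte markers 6 had enough counts to test, among them Podxl, Synpo and Wt1. So had 3 of 12 fibroblast and pericyte markers (Pdgfrb, Mcam and Islr), 2 of 12 endothelial (Eng and Egfl7) and 2 of 12 immune markers (Cd68 and Csf1r). Summed over each list, immune markers stood at 77.2 to 83.0 CPM in the controls and 41.4 to 58.4 with TGFβ, fibroblast and pericyte markers at 80.8 to 89.8 and 67.8 to 183, and podocyte markers at 369 to 391 and 385 to 457. Collecting duct markers fell from 351 to 376 CPM to 90.6 to 100.2, and proximal tubule markers from 1255 to 1333 CPM to 163 to 211, in the same libraries as the results below. Each of these falls rests mainly on 1 abundant gene, Aqp1 for the proximal tubule, with a median log2 fold change of -0.41 over the 3 tested markers, and Tfcp2l1 for the collecting duct, where 2 of 4 tested markers fell and 1 rose. The part of other cell types in those results was not tested. In a bulk measurement, a smaller number of cells of a type and less RNA per cell cannot be told apart.

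TGFβ changed many genes, about equally often in both directions. Of 13124 genes tested with edgeR's quasi-likelihood test, 3968 passed an adjusted p of 0.05 by Benjamini-Hochberg and are said to be called (30.2%), 2027 up (15.4%) and 1941 down (14.8%). At least 2-fold changes numbered 768 up and 907 down, and at least 8-fold changes 119 and 102. The median log2 fold change over all tested genes was 0.01. Genes called up held 15.0 to 15.1% of the counts of control libraries and 25.5 to 27.2% of those of TGFβ libraries, while genes called down held 20.9 to 21.5% and 10.4 to 12.1%. The libraries of both groups did not overlap in 46.1% of tested genes. Without TGFβ replicate 2, 5216 genes were called, and without control replicate 2 or 3, 2559 or 2506. Scaling by library size alone left the total near the same, at 3980, but moved the split to 1707 up and 2273 down. Protein-coding genes were called up in 1913 and down in 1723 of 11138, whereas 209 long intergenic non-coding RNAs had 16 up and 40 down with a median log2 fold change of -0.35.

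**Figure D1:**
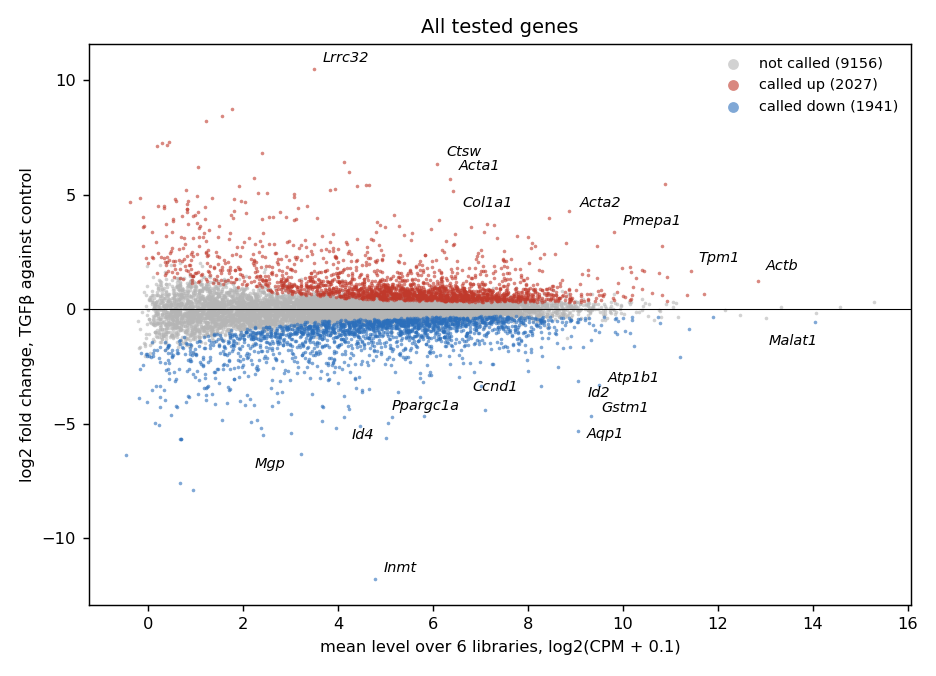
Log2 fold change (TGFβ against control) of each of the 13124 tested genes against its mean level over the 6 libraries, coloured by call at an adjusted p below 0.05. Rises and falls are about equal in number (2027 and 1941), with Lrrc32 and Inmt at the extremes because each was at 0 counts in all libraries of one group.

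The largest rises included a laminin chain, a receptor and proteases. Lamb3 (ENSMUSG00000026639), a chain of laminin-332, stood at 0.915, 0.743 and 1.54 CPM in the controls and 30.2, 69.0 and 41.2 CPM with TGFβ, a rise of 42.8-fold (log2 fold change 5.42 ± 0.41, adjusted p 1.77e-05). Il1rl1 (ENSMUSG00000026069), the receptor of interleukin-33, went from 0.114, 1.73 and 1.54 CPM to 50.5, 43.9 and 52.0. Every TGFβ library was more than 10-fold above the highest control for both genes. The membrane metalloprotease Adam12 rose 41.3-fold (adjusted p 3.55e-06) from 0.343, 1.24 and 1.34 CPM to 31.7, 51.4 and 39.6, and Kif26b, a kinesin-like protein, 37.9-fold (adjusted p 2.36e-06). Ctsw (cathepsin W) and Cmah, the hydroxylase that makes N-glycolylneuraminic acid, had 124, 159 and 120.0 and 27.8, 36.6 and 38.5 CPM with TGFβ, from at most 2.40 and 0.412 CPM in any control.

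Among genes of at least 5 CPM with TGFβ, 4 had no more than 3 counts over the 3 controls together, a pattern counted after the values were seen. Lrrc32 (ENSMUSG00000090958), also known as GARP, a membrane anchor of latent TGFβ, had 0 counts over all controls and reached 17.1, 20.3 and 29.1 CPM in the TGFβ libraries, at least 167-fold higher against a floor of 3 counts over the group. Prss46, a serine protease, had 0 and 147 counts and was at least 53.5-fold higher, and Cdh15, M-cadherin of muscle, had 0 and 108 counts and was at least 39.3-fold higher. Fbxo40, a muscle ubiquitin ligase subunit, had 2 and 240 counts. In the other direction Inmt, indolethylamine N-methyltransferase, had 1450 counts over the controls against 0 in the TGFβ libraries, at least 443-fold lower.

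Among the largest falls, the water channel Aqp1 (ENSMUSG00000004655) stood at 1006, 1012 and 1089.6 CPM in the controls and 35.4, 19.7 and 21.4 CPM with TGFβ and fell 40.0-fold (log2 fold change -5.32 ± 0.23, adjusted p 3.76e-07). Ackr3, a scavenger receptor of chemokines, fell from 65.5, 62.0 and 61.3 CPM to 1.63, 0.985 and 1.17 (49.0-fold, adjusted p 3.19e-07). Cdh13, a cadherin without a transmembrane domain, fell from 23.2, 23.8 and 25.2 to 0.872, 0.627 and 1.17 CPM, and Ptgds, a prostaglandin D2 synthase, from 63.9, 68.6 and 69.9 to 2.83, 2.69 and 1.17. In none of these genes did any TGFβ library come near a control. The calcification inhibitor Mgp fell from 17.2, 16.0 and 21.9 CPM to 0.109, 0.358 and 0, which is 79.7-fold in the 6 libraries and 182-fold without TGFβ replicate 2. Agt, which encodes angiotensinogen, fell from 28.5, 26.5 and 35.5 to 0.763, 1.07 and 0 CPM. When every library was thinned to the depth of the shallowest, the estimated folds of several near-silent genes moved by over 1.5 times and stayed called: Acta1 to 114, Agt to 547, Lamb3 to 72.7, Cdh13 to 56.4, Kif26b to 74.7, Cmah to 52.4 and Ctsw to 53.9.

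Cytoskeletal genes were among the largest gains in CPM. Actb, cytoplasmic beta-actin, stood at 4436, 4553 and 4284 CPM in the controls and 8182, 15458 and 7525 CPM with TGFβ and rose 2.35-fold (log2 fold change 1.23 ± 0.25, adjusted p 0.00583), with TGFβ replicate 2 far above the other TGFβ libraries. Tpm1, tropomyosin 1, went from 1349.7, 1355 and 1276 to 4223, 3948 and 4543 CPM, and Actn1, the crosslinker alpha-actinin 1, from 889.6, 867 and 873 to 2757, 2471 and 2614 CPM. The TGFβ libraries were tight for both, and rises were 3.19-fold and 2.98-fold (adjusted p 4.13e-06 and 4.13e-06). Caldesmon (Cald1), which binds actin and tropomyosin, rose 1.56-fold (adjusted p 0.00132), and Tmsb4x, the actin-monomer binder thymosin beta 4, 3.14-fold (adjusted p 0.0013). Among the 10 largest losses of CPM was a subunit of the sodium pump. Atp1b1, the beta subunit, stood at 1281, 1298 and 1363 CPM in the controls and 119, 155 and 118 CPM with TGFβ, a fall of 10.0-fold (log2 fold change -3.32 ± 0.14, adjusted p 3.76e-07). App, the amyloid precursor protein, fell 1.82-fold (adjusted p 0.000186) and the small heat-shock protein Cryab 2.08-fold (adjusted p 0.000169). The largest loss was that of Malat1, an abundant nuclear non-coding RNA, from 19653, 20238 and 20786 CPM to 15059.9, 10429.5 and 15881, a fall of 1.47-fold (adjusted p 0.0263). That call was lost without control replicate 1, 2 or 3 (adjusted p 0.0906, 0.112 and 0.114).

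Within the TGFβ pathway, the latency gene Ltbp1 and the feedback regulator Pmepa1 rose 11.4-fold and 10.4-fold, while Tgfb1, Tgfbr1, Tgfbr2, Smad2 and Smad3 were not called. Of 12 tested genes of ligands, latency and activation, 6 rose and 3 fell (75% called, against 30.2% of all tested genes). Their median log2 fold change was 0.58 against 0.01 over all genes. Tgfb1 itself stood at 13.4, 9.41 and 11.1 CPM in the controls and 11.4, 27.8 and 6.21 CPM with TGFβ and was not called (log2 fold change 0.53 ± 0.42, adjusted p 0.388), with replicate 2 highest and replicate 3 below every control. Tgfb2, the more abundant isoform here, rose from 192, 204 and 205 to 266, 381 and 282 CPM (1.55-fold, adjusted p 0.00815). Ltbp1, which tethers latent TGFβ to the matrix, stood at 11.3, 9.16 and 9.68 CPM in the controls and 92.5, 158 and 90.9 CPM with TGFβ, a rise of 11.4-fold (log2 fold change 3.51 ± 0.24, adjusted p 5.49e-06) with all TGFβ libraries far above all controls. Furin, the protease that cleaves the TGFβ precursor, rose 1.86-fold (adjusted p 0.00253). Ltbp3 fell 1.62-fold (adjusted p 0.00162), from 282, 261 and 290.1 to 175, 151 and 189 CPM, so these latency proteins moved in opposite directions.

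The signalling receptors of TGFβ were not called. Tgfbr1, the type I receptor kinase, stood at 25.2, 22.4 and 19.8 CPM in the controls and 21.9, 27.6 and 22.1 CPM with TGFβ, and Tgfbr2, the type II receptor, at 163, 134 and 131 CPM in the controls and 151, 128 and 180.2 CPM with TGFβ. The tests gave log2 fold change 0.10 ± 0.16, adjusted p 0.68 for Tgfbr1 and log2 fold change 0.10 ± 0.15, adjusted p 0.665 for Tgfbr2, and the libraries of both groups overlapped. Of the co-receptors, Eng (endoglin) was low and not called (log2 fold change 0.59 ± 0.46, adjusted p 0.37). Tgfbr3 (betaglycan), which presents ligand to the type II receptor, fell from 72.4, 72.0 and 68.9 to 25.4, 16.8 and 19.0 CPM (3.46-fold, adjusted p 4.03e-05), and Cd109, a co-receptor that restrains signalling, fell 2.79-fold (adjusted p 0.000254). Acvr1 (ALK2), a type I receptor mainly of BMPs and activins, rose 3.15-fold (log2 fold change 1.66 ± 0.25, adjusted p 0.00112) from 24.5, 23.1 and 17.0 to 69.8, 45.3 and 92.1 CPM, and the BMP type II receptor Bmpr2 rose 1.62-fold (adjusted p 0.00188). Of all 11 receptor and co-receptor genes tested, 2 rose, 3 fell and 6 were not called (45.5% called, against 30.2% of all tested genes).

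Among 26 SMADs and intracellular regulators 6 rose, 4 fell and 16 were not called, which is 38.5% called against 30.2% of all tested genes. Without TGFβ replicate 2 the counts were 8 and 7. Smad2 stood at 43.8, 36.6 and 44.2 CPM in the controls and 41.5, 47.0 and 37.3 CPM with TGFβ and was not called (log2 fold change 0.03 ± 0.14, adjusted p 0.913). Smad3 stood at 175, 182 and 184 CPM in the controls and 143, 167 and 131 CPM with TGFβ, below the controls in all TGFβ libraries, and was not called (log2 fold change -0.29 ± 0.12, adjusted p 0.0941), but it was without TGFβ replicate 2 (1.31-fold lower, adjusted p 0.00173). The inhibitory Smad7, usually taken as an early TGFβ target, stood at 55.5, 49.4 and 48.9 CPM in the controls and 61.8, 72.1 and 57.9 CPM with TGFβ and missed the threshold (log2 fold change 0.33 ± 0.13, adjusted p 0.0917), which it passed in the model of all 12 libraries (adjusted p 0.0214). Pmepa1, which binds and sequesters receptor-regulated SMADs, stood at 149, 164 and 157 CPM in the controls and 1284, 2124 and 1484 CPM with TGFβ, a rise of 10.4-fold (log2 fold change 3.38 ± 0.19, adjusted p 1.41e-06). Skil, the SMAD co-repressor SnoN, rose from 66.9, 65.6 and 51.1 to 165, 184 and 174 CPM (2.85-fold, adjusted p 2.72e-05), and Ldlrad4, a membrane relative of Pmepa1, 2.75-fold (adjusted p 7e-05). In each of these 3 genes every TGFβ library exceeded every control by more than 1.5-fold, whereas the estimate for Smad7 was 1.25-fold. The ubiquitin ligase Nedd4l, which marks activated SMAD2 and SMAD3 for breakdown, fell 2.06-fold (adjusted p 0.000115).

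**Figure D2:**
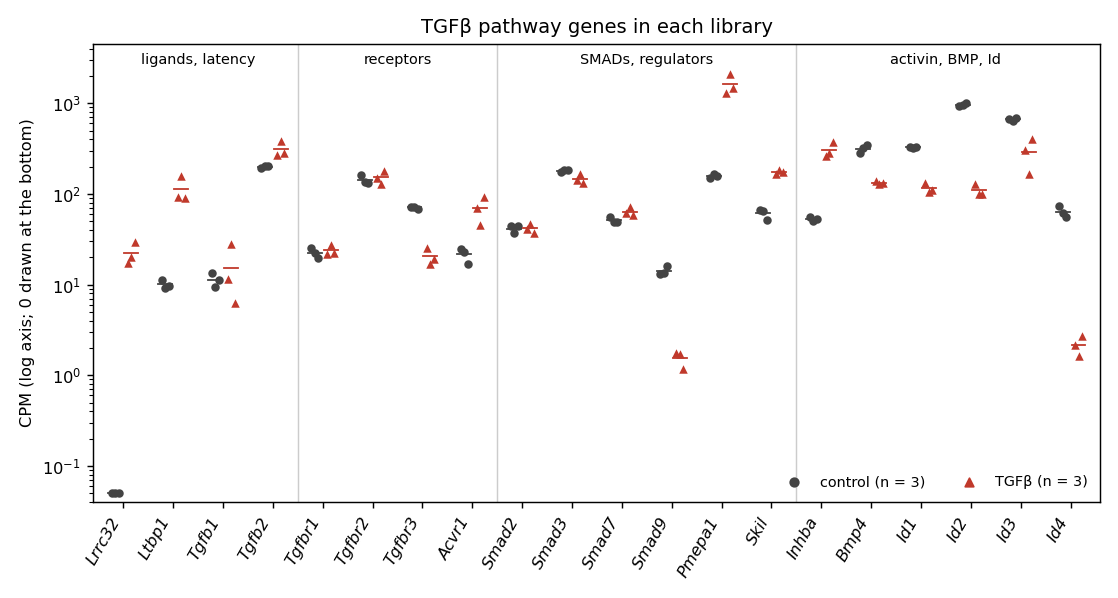
CPM (log axis) of 20 TGFβ and BMP pathway genes in each of the 3 control (circles) and 3 TGFβ (triangles) libraries, with lines at group means and values of 0 drawn at the bottom. Tgfbr1, Tgfbr2 and Smad2 overlap between groups, Ltbp1, Pmepa1, Skil and Inhba lie higher with TGFβ, and Smad9 and the 4 Id genes lie lower.

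Genes of the BMP branch fell more often than they rose. All 4 Id genes, helix-loop-helix proteins that block differentiation factors, were lower in every TGFβ library than in any control. The same held for 3068 of all 13124 tested genes. Id1 stood at 329, 319 and 329 CPM in the controls and 130.3, 105 and 112 CPM with TGFβ, a fall of 2.81-fold (log2 fold change -1.49 ± 0.12, adjusted p 1.23e-05). Id2 fell from 932, 948 and 995 to 128, 100.2 and 98.7 CPM (8.76-fold), Id3 from 675, 629 and 688 to 307, 166 and 407 (2.28-fold) and Id4 from 73.2, 62.3 and 55.6 to 2.18, 1.61 and 2.72 (31.6-fold), with adjusted p of 3.76e-07, 0.00956 and 3.76e-07. Smad9, a BMP-regulated SMAD, fell 8.62-fold (log2 fold change -3.11 ± 0.25, adjusted p 1.58e-05), from 13.0, 13.5 and 16.1 CPM to 1.74, 1.70 and 1.17, and Smad6, the inhibitory SMAD of BMP signalling, 1.88-fold (adjusted p 0.00412). Smad5, another BMP-regulated SMAD, rose 1.42-fold (adjusted p 0.016). The ligands Bmp4 and Bmp6 fell from 285, 322 and 344 to 140.3, 129 and 132 CPM and from 140.0, 144 and 144 to 67.8, 56.5 and 68.4 CPM (2.37-fold and 2.23-fold), whereas Bmp7 rose from 10.1, 8.79 and 11.5 to 14.2, 24.3 and 19.8 CPM (1.91-fold, adjusted p 0.0115). The call of Bmp7 was lost without control replicate 2 (adjusted p 0.061) and in the thinned libraries (0.183), and that of Smad5 without control replicate 1, 2 or 3 (0.0534, 0.0785 and 0.0788) and in the thinned libraries (0.0852). Chrdl1, a secreted BMP antagonist, fell 5.62-fold (adjusted p 0.000121). Activin moved up: Inhba, the activin A subunit, stood at 56.3, 50.4 and 53.2 CPM in the controls and 260.2, 284 and 378 CPM with TGFβ, a rise of 5.75-fold (log2 fold change 2.52 ± 0.15, adjusted p 2.61e-06), and the follistatin-like Fstl1 rose 3.62-fold (adjusted p 2.76e-06), while follistatin itself (Fst) was not called (log2 fold change -0.17 ± 0.19, adjusted p 0.54). Of 18 tested genes of this group 4 rose and 8 fell (66.7% called, against 30.2% of all tested genes), with a median of -0.54. Without control replicate 2, 2 rose and 7 fell.

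Collagen chain genes mostly rose where they changed. Of 19 collagen chain genes 10 rose and 2 fell (63.2% called, against 30.2% of all tested genes), with a median log2 fold change of 1.20. Col1a1, a chain of collagen I, stood at 6.41, 4.46 and 3.09 CPM in the controls and 146, 185 and 169.7 CPM with TGFβ, which is 36.0-fold (log2 fold change 5.17 ± 0.23, adjusted p 3.88e-07). Col5a1, which regulates fibril diameter, rose from 65.4, 73.5 and 71.1 to 277, 328 and 296 CPM (4.29-fold, adjusted p 1.46e-06), and Col27a1, another fibrillar chain, 5.19-fold (adjusted p 4.86e-05). Collagen IV chains of 1 network moved apart. Col4a4, of the network typical of glomerular and distal tubular basement membranes, rose from 7.55, 6.68 and 9.99 to 76.5, 87.9 and 60.6 CPM (9.32-fold, adjusted p 2.76e-06). Its partner in that network, Col4a5, fell from 169, 143 and 124 to 53.5, 57.4 and 53.2 CPM (2.65-fold, adjusted p 5.6e-05). Groups were fully separate for both, in opposite directions, and were separate in 46.1% of all tested genes. Without TGFβ replicate 2, 10 collagen genes rose and 4 fell.

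Enzymes that process collagen moved in both directions. Loxl2, which crosslinks collagen, rose from 5.61, 5.07 and 7.00 to 46.6, 54.3 and 41.2 CPM (8.05-fold, or 4.99-fold in the thinned libraries), and Plod2, the lysyl hydroxylase of crosslink sites, from 151, 144 and 126 to 303, 355 and 369 CPM (2.44-fold, adjusted p 4.92e-05). Bmp1, the proteinase that trims procollagen, rose 3.02-fold (adjusted p 4.72e-05). Of its enhancers Pcolce2 rose 12.7-fold (log2 fold change 3.67 ± 0.20, adjusted p 1.13e-06), from 3.89, 3.84 and 5.05 to 44.7, 59.3 and 60.6 CPM, and the far more abundant Pcolce fell 2.80-fold (log2 fold change -1.49 ± 0.17, adjusted p 0.000127), from 545, 594 and 590.2 to 191, 262 and 161 CPM. Both prolyl hydroxylase subunits P4ha1 and P4ha2 fell, P4ha1 2.18-fold (adjusted p 5.82e-05) and P4ha2 1.55-fold (adjusted p 0.00303), and so did the prolyl 3-hydroxylase P3h2 (3.05-fold). The list of 25 had 12 rises, 5 falls and 8 genes not called (68% called, against 30.2% of all tested genes).

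Among matricellular genes Ccn4, Postn and Ccn2 rose. Ccn4, a secreted CCN protein, stood at 175, 179 and 183 CPM in the controls and 1038, 1129.6 and 1497 CPM with TGFβ, a rise of 6.82-fold (log2 fold change 2.77 ± 0.15, adjusted p 1.29e-06), and periostin (Postn), which binds collagen and integrins, went from 89.5, 68.8 and 62.0 to 467, 489 and 514 CPM (6.67-fold, adjusted p 1.31e-06). Fbln2 (fibulin-2) rose 8.97-fold (adjusted p 7.39e-06). Ccn2, or CTGF, stood at 518, 499.9 and 385 CPM in the controls and 4136, 957 and 4327 CPM with TGFβ. Replicate 2 was 4-fold or more below the other TGFβ libraries for Ccn2, yet above all controls. Its rise of 6.71-fold (log2 fold change 2.75 ± 0.51, adjusted p 0.00534) lost its call without a low-count filter (adjusted p 0.0777) and with replicate number as a block (0.0917). Falls included Sned1, a matrix glycoprotein, from 77.8, 94.2 and 108 to 10.2, 10.1 and 15.9 CPM (8.15-fold), fibulin-3 (Efemp1, 7.75-fold) and the laminin chain Lamb1 (1.49-fold). In all 13 of 26 glycoprotein genes rose and 7 fell (76.9% called, against 30.2% of all tested genes). Among 21 proteoglycan and hyaluronan genes 10 rose and 3 fell (61.9% called, against the same 30.2%), or 6 and 3 without control replicate 1 or 3. Gpc1 (glypican-1) rose 2.07-fold (adjusted p 9.92e-05), Fmod (fibromodulin) 1.83-fold (adjusted p 0.0019), and Sdc4 (syndecan-4) fell 1.95-fold (adjusted p 0.000321).

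Matrix proteases and their inhibitors rose more often than they fell. Mmp9, a gelatinase, stood at 3.89, 5.07 and 4.43 CPM in the controls and 39.7, 31.8 and 40.4 CPM with TGFβ, a rise of 8.28-fold (log2 fold change 3.05 ± 0.19, adjusted p 2.61e-06), and its inhibitor Timp1 stood at 18.4, 18.2 and 18.9 CPM in the controls and 79.4, 109 and 97.5 CPM with TGFβ, a rise of 5.15-fold (log2 fold change 2.36 ± 0.15, adjusted p 3.5e-06). Timp3, the matrix-bound inhibitor, rose from 662, 637 and 610.3 to 1642, 2331 and 2214 CPM (3.24-fold). The aggrecanase Adamts4 rose 5.70-fold (adjusted p 1.34e-05), while Adamts1 fell 1.90-fold (adjusted p 0.00155) and Adamts5 1.39-fold (adjusted p 0.0096). In the plasminogen system Plat, tissue plasminogen activator, fell from 87.1, 69.6 and 62.7 to 33.1, 15.2 and 38.8 CPM (2.61-fold, adjusted p 0.00827). Over the group 15 of 29 genes rose and 5 fell (69.0% called, against 30.2% of all tested genes), with 12 and 3 without control replicate 2. Integrins split, with 4 of 13 up and 5 down (69.2% called, against the same 30.2%), or 2 and 4 without control replicate 2 or 3. The fibronectin receptor chains Itga5 and Itgb1 rose 4.20-fold and 1.96-fold (adjusted p 0.000639 and 7.92e-05). Itga1, a collagen receptor chain, stood at 208, 219 and 207 CPM in the controls and 42.9, 41.7 and 44.3 CPM with TGFβ, a fall of 4.93-fold (log2 fold change -2.30 ± 0.11, adjusted p 6.33e-07), and Itga9, which binds tenascin, fell from 37.9, 45.1 and 41.7 to 3.70, 3.40 and 3.50 CPM (11.7-fold).

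Contractile genes had the largest share of members called up of the 33 lists. Of 28 tested genes of actins, tropomyosins and the serum response factor (SRF) pathway, 22 rose and 1 fell, with a median log2 fold change of 1.23, against 15.4% and 14.8% of all tested genes. Acta2 (ENSMUSG00000035783), smooth muscle actin, stood at 45.2, 43.4 and 45.3 CPM in the controls and 801, 1034 and 816 CPM with TGFβ, a rise of 19.8-fold (log2 fold change 4.31 ± 0.14, adjusted p 1.5e-07). Acta1 (ENSMUSG00000031972), skeletal muscle actin, stood at 2.97, 3.34 and 2.88 CPM in the controls and 140.5, 151 and 189.9 CPM with TGFβ, a rise of 51.9-fold (log2 fold change 5.70 ± 0.18, adjusted p 1.5e-07). Transgelin (Tagln) and the myosin light chain Myl9 went from 49.2, 42.6 and 36.4 to 330.5, 575 and 268 CPM and from 2.06, 4.58 and 5.35 to 21.5, 32.9 and 22.5 CPM (9.20-fold and 6.44-fold, adjusted p 5.54e-05 and 0.000172). All TGFβ libraries lay above all controls for these 4 genes, as they did for 2984 of all 13124 tested genes. The exception was Mylk, myosin light chain kinase, which fell 1.50-fold (adjusted p 0.00189), from 718, 755 and 761 to 523, 476 and 487 CPM. Without TGFβ replicate 3, 23 rose and 2 fell.

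Of 30 YAP and TEAD factors and targets 12 rose and 3 fell (50% called, against 30.2% of all tested genes). Only 1 fell when control replicate 1 or 2 or TGFβ replicate 1 was left out, and 14 rose and 5 fell without TGFβ replicate 2. Ankrd1, a muscle ankyrin-repeat protein and YAP target, stood at 1064, 1087 and 1069 CPM in the controls and 2736, 2414 and 3359 CPM with TGFβ, a rise of 2.64-fold (log2 fold change 1.40 ± 0.14, adjusted p 4.86e-05). Vgll3, a TEAD cofactor, rose from 8.01, 8.91 and 8.34 to 70.7, 95.2 and 88.9 CPM (10.1-fold, or 15.2-fold in the thinned libraries) and Nt5e (CD73), an ecto-nucleotidase, 4.12-fold (adjusted p 2.08e-06). The stress gene Gadd45b rose 4.28-fold (adjusted p 0.000606).

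Promoters of genes that rose were searched for short motifs in the 250 bases before the RefSeq start, on both strands, for 9184 tested genes with an entry. The CArG box, the site of SRF, was found in 128 of these (1.39%), in 19 of 516 genes that rose at least 2-fold (3.68%) and in 3 of 620 that fell (0.484%). Among the 32851 promoter entries searched, 1.47% held it. That share counts entries, while the others count a gene once if any of its entries holds the motif. The search left out 1 chromosome. The interferon-stimulated response element was found in 32 (0.348%), of which 25 rose, 0 fell and 7 were not called. Of all tested genes 15.4% were called up. Several of the 32 belong to the same gene families, such as Gbp2, Gbp3, Gbp5 and Gbp7, so they may not count as separate cases. The AP-1 site TGANTCA was found in 495 (5.39%), in 55 of the 2-fold risers (10.7%) and 51 of the fallers (8.23%). The SMAD palindrome GTCTAGAC was in 26, of which 3 were among the 2-fold risers and 3 among the fallers, and the CAGA box AGCCAGACA was in 30, with 1 and 5. Motif matches describe these letters only. The following 250 bases (RefSeq, GRCm38.p6, ending at the base before the start) are shown because each belongs to a strongly raised gene and holds a motif in capitals, a CArG box in Acta1, Myl9 and Gsto1, an AP-1 site in Il11, and a response element followed by an AP-1 site in Cxcl10. They lie at chr8:123894776-123895025, minus strand (Acta1), chr2:156775214-156775463, plus strand (Myl9), chr19:47854723-47854972, plus strand (Gsto1), chr7:4778142-4778391, minus strand (Il11) and chr5:92348890-92349139, minus strand (Cxcl10).
Acta1: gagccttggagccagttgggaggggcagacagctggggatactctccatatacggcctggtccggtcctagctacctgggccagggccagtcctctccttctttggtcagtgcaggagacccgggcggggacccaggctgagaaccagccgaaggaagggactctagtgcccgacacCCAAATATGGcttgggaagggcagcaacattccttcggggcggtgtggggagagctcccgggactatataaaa
Myl9: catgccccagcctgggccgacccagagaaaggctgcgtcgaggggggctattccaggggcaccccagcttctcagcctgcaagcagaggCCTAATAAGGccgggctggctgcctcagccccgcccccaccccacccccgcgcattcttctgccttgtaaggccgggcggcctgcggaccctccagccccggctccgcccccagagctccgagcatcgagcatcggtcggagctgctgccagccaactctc
Gsto1: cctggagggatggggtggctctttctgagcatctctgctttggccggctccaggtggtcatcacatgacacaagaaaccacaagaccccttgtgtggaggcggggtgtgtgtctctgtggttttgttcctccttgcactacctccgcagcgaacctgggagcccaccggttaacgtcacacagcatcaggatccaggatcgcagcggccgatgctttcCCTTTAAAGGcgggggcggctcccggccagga
Il11: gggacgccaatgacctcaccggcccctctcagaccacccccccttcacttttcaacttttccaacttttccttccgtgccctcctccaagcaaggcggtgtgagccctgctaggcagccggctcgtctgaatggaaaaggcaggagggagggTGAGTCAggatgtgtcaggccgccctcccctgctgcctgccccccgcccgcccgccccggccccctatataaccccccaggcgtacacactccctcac
Cxcl10: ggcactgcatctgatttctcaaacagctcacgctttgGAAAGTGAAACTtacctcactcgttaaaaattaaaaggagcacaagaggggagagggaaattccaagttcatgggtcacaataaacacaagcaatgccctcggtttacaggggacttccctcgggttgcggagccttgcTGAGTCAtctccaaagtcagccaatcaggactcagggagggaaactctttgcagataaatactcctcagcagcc
The first base of the motif nearest the start lies 73 bases before the start in Acta1, 161 in Myl9, 32 in Gsto1, 98 in Il11 and 74 in Cxcl10, whose response element begins 213 bases before.

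Genes of epithelial identity moved in both directions. Among 22 factors of epithelial and mesenchymal transition 7 rose and 5 fell (54.5% called, against 30.2% of all tested genes). Only 3 rose without control replicate 1 or 3. Runx1, a transcription factor induced in injured tubules, stood at 97.5, 114 and 102 CPM in the controls and 274, 499 and 282 CPM with TGFβ, a rise of 3.37-fold (log2 fold change 1.75 ± 0.23, adjusted p 0.000437). Sox11 rose from 257, 243 and 238 to 525, 673 and 582 CPM (2.41-fold, adjusted p 4.71e-05) and Zeb2, a repressor of epithelial genes, 1.86-fold (adjusted p 0.00487). Foxc1 fell 3.01-fold (adjusted p 3.24e-05) and Sox9, a factor of tubular regeneration, 1.59-fold (adjusted p 0.00187). Of 28 junction and keratin genes 12 rose and 6 fell (64.3% called, against 30.2% of all tested genes). Krt8, the simple-epithelial keratin, stood at 63.8, 63.9 and 64.6 CPM in the controls and 214, 406 and 256 CPM with TGFβ, a rise of 4.56-fold (log2 fold change 2.19 ± 0.22, adjusted p 8.25e-05), and the kidney cadherin Cdh6 rose 1.85-fold (adjusted p 0.00027). Cdh16, the kidney-specific cadherin, fell from 212, 220.4 and 221 to 71.8, 93.5 and 65.6 CPM (2.81-fold, adjusted p 4.47e-05), the tight junction protein Cldn1 2.62-fold (adjusted p 0.00129) and the polarity gene Pard6b 2.43-fold (adjusted p 0.000796).

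Transcription factors of the kidney lineage mostly fell where they changed. Of 32 tested, 15 fell and 4 rose (59.4% called, against 30.2% of all tested genes), with a median log2 fold change of -0.48. Without control replicate 2 the rises numbered 2. Pax2, a factor of nephron development, stood at 277, 312 and 303 CPM in the controls and 146, 191 and 95.9 CPM with TGFβ, a fall of 2.04-fold (log2 fold change -1.03 ± 0.21, adjusted p 0.00496). Its relative Pax8 stood at 208, 225 and 244 CPM in the controls and 175, 240.0 and 145 CPM with TGFβ and was not called (log2 fold change -0.27 ± 0.17, adjusted p 0.276), but it was without TGFβ replicate 2 (1.39-fold lower, adjusted p 0.000812). Gata3 and Tfcp2l1, both markers of the collecting duct, fell from 55.9, 49.0 and 55.3 to 10.2, 15.4 and 8.16 CPM and from 297, 294 and 309 to 84.9, 85.4 and 79.6 CPM (4.50-fold and 3.59-fold). Maf, Tfap2a and Sall1, regulators of tubule development, fell 2.40-fold, 2.64-fold and 2.28-fold. The rises included the proliferation factor Foxm1 (1.85-fold (adjusted p 0.0004)).

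Most tested transport genes of the proximal tubule fell: 11 of 17 tested fell, none rose, and the median log2 fold change was -1.36. This is 64.7% called, against 30.2% of all tested genes. Their summed level was 6947 to 7519 CPM in the controls and 1135 to 1882 with TGFβ. Beside Aqp1 and Atp1b1, Car2, the cytosolic carbonic anhydrase, fell from 68.1, 61.9 and 55.5 to 16.0, 15.2 and 17.1 CPM (3.87-fold, adjusted p 7.66e-06). The list had 50 members, and 33 had too few counts to test.

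Glutathione S-transferases, which conjugate electrophiles, fell where they were called, with 1 exception. Of 17 tested genes 10 fell and 1 rose (64.7% called, against 30.2% of all tested genes), with a median of -1.13. Without TGFβ replicate 2, 11 fell and 2 rose. Gstm1 stood at 1131, 1224 and 1338 CPM in the controls and 45.2, 49.9 and 52.4 CPM with TGFβ, a fall of 25.1-fold (log2 fold change -4.65 ± 0.13, adjusted p 1.03e-07). Gstm7 fell from 23.6, 26.1 and 23.5 to 1.42, 1.07 and 1.17 CPM (19.7-fold), Gstm2 from 155, 172 and 171 to 36.5, 33.9 and 24.1 CPM (5.15-fold) and the microsomal Mgst1 3.10-fold (adjusted p 0.000334). Gstm genes are close copies of each other, so the split of reads between them is uncertain. The exception was Gsto1, an omega-class transferase with reductase activity, which stood at 105, 97.5 and 106 CPM in the controls and 345, 442 and 469 CPM with TGFβ and rose 4.06-fold (log2 fold change 2.02 ± 0.14, adjusted p 4.28e-06).

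**Figure D3:**
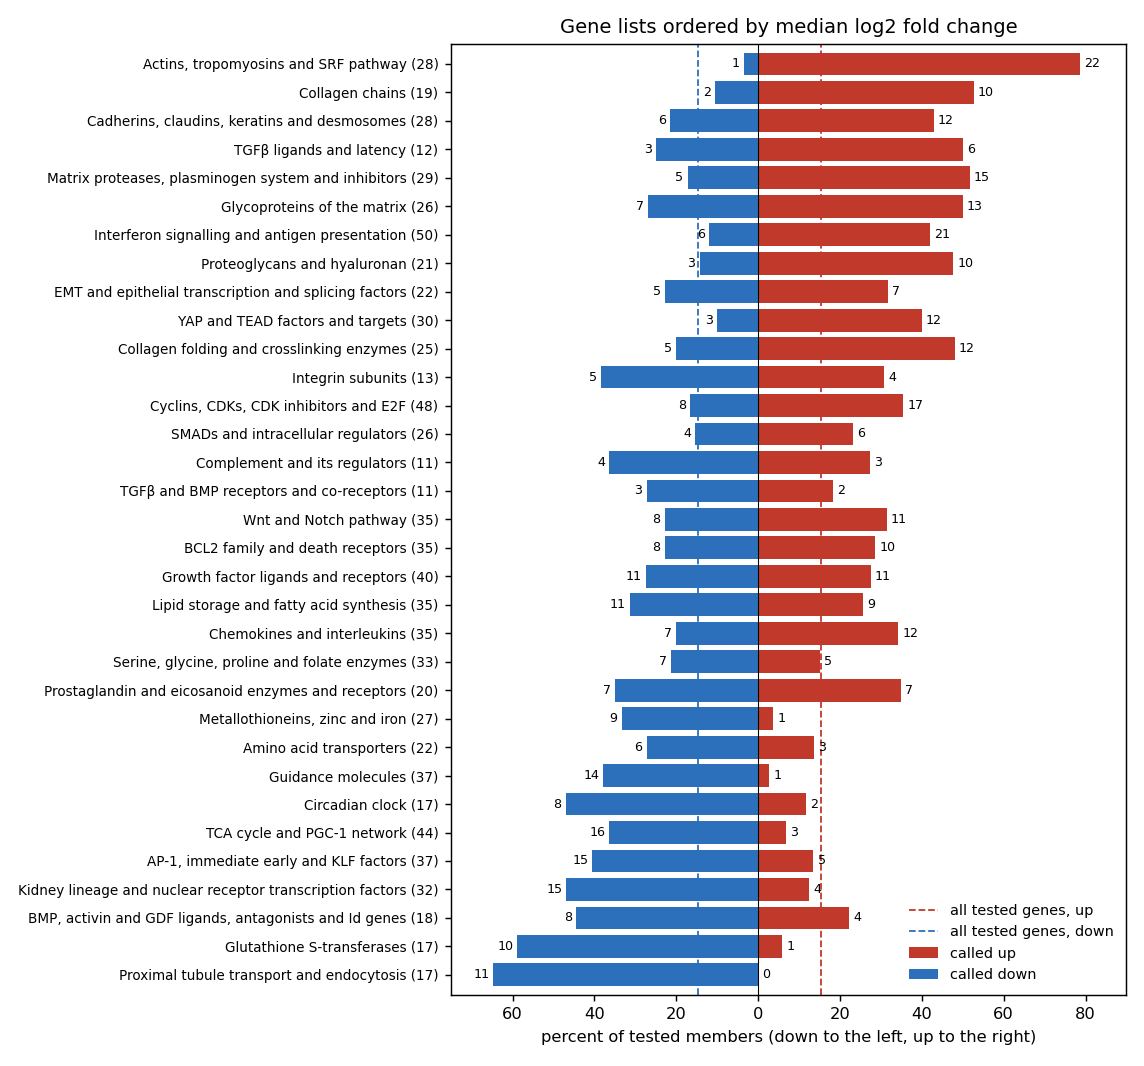
Percent of the tested members of 33 gene lists called up (right) and down (left), with the number of members beside each bar, lists ordered by median log2 fold change and tested members in brackets. Dashed lines mark all tested genes (15.4% up, 14.8% down); contractile genes (22 of 28 up) and proximal tubule transport (11 of 17 down) lie at the ends.

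Genes of mitochondrial fuel use fell more often than they rose. Ppargc1a, the coactivator PGC-1 alpha of mitochondrial biogenesis, stood at 258, 252 and 276 CPM in the controls and 15.6, 9.05 and 12.0 CPM with TGFβ, a fall of 21.5-fold (log2 fold change -4.43 ± 0.19, adjusted p 3.76e-07). Of 44 tested genes of its network and the citrate cycle 16 fell and 3 rose (43.2% called, against 30.2% of all tested genes), with a median of -0.37. Without TGFβ replicate 2 these counts were 22 and 5. The pyruvate dehydrogenase kinases Pdk1 and Pdk2, which switch that enzyme off, fell from 22.99, 25.0 and 25.1 to 5.01, 5.82 and 5.44 CPM and from 29.6, 32.8 and 31.5 to 5.34, 7.16 and 3.11 CPM (4.48-fold and 5.49-fold), and so did Pdp1, the phosphatase that switches it on (2.63-fold). Acly, which makes cytosolic acetyl-CoA from citrate, rose 2.78-fold (log2 fold change 1.47 ± 0.12, adjusted p 1.63e-05). In proline breakdown Prodh and Aldh4a1, consecutive enzymes, fell by 12.5-fold (adjusted p 2.93e-05) and 2.50-fold (adjusted p 0.000148), while in the folate cycle Mthfd1l rose 2.14-fold (adjusted p 0.000951). Over 33 serine, glycine, proline and folate enzymes 5 rose and 7 fell (36.4% called, against 30.2% of all tested genes), or 3 and 4 without any one of the controls. Of 22 amino acid transporters 3 rose and 6 fell (40.9% called, against the same 30.2%), or 1 and 5 without any one of the controls and 5 and 9 without TGFβ replicate 2.

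Lipid genes changed in both directions, and iron genes mostly fell where they changed. Plin2, the coat protein of lipid droplets, stood at 99.5, 109.7 and 102 CPM in the controls and 452, 737 and 452 CPM with TGFβ, a rise of 5.29-fold (log2 fold change 2.40 ± 0.19, adjusted p 1.61e-05), and the monoacylglycerol lipase Mgll rose 3.15-fold (adjusted p 0.000261). The lipoprotein receptor Vldlr fell 3.26-fold (adjusted p 4.75e-06). Of 35 lipid storage and synthesis genes 9 rose and 11 fell (57.1% called, against 30.2% of all tested genes). Of 27 metallothionein, zinc and iron genes 9 fell and 1 rose (37.0% called, against 30.2% of all tested genes). The rise was lost without any one control, and 5 rose and 11 fell without TGFβ replicate 2. The transferrin receptor Tfrc fell from 114, 109 and 118 to 30.6, 29.3 and 24.1 CPM (4.00-fold) and the ferritin chain Fth1 from 956, 899 and 935 to 351, 375 and 353 CPM (2.59-fold), and the ferroxidase ceruloplasmin (Cp) from 658, 691 and 693 to 134, 129 and 91.7 CPM (5.70-fold). For these 3 genes the groups did not overlap, as in 46.1% of all tested genes.

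The cyclooxygenases, which start prostaglandin synthesis, moved in opposite directions. Ptgs1 (COX-1) fell from 38.4, 37.5 and 36.1 to 6.86, 9.22 and 6.60 CPM (4.79-fold, adjusted p 1.01e-05). The inducible Ptgs2 (COX-2) rose from 1.14, 0.124 and 1.65 to 15.1, 12.9 and 18.6 CPM, which is 15.0-fold (log2 fold change 3.90 ± 0.46, adjusted p 0.000175), or 22.7-fold without control replicate 3 and 7.65-fold in the thinned libraries. The uptake transporter Slco2a1 fell 5.22-fold (adjusted p 7.18e-07) and the reductase Ptgr2 2.32-fold (adjusted p 0.00086). In the prostaglandin list 7 of 20 genes rose and 7 fell (70% called, against 30.2% of all tested genes). Without control replicate 2 or 3, 4 rose.

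Among cytokine genes Il11, Cxcl10 and Ccl5 rose, while Cxcl5 and Cxcl1 fell. Il11 (ENSMUSG00000004371), a cytokine linked to fibrosis, stood at 1.03, 0.743 and 0.618 CPM in the controls and 9.92, 16.7 and 31.5 CPM with TGFβ, a rise of 22.6-fold (log2 fold change 4.50 ± 0.49, adjusted p 0.000128), while its receptor Il11ra1 fell 1.83-fold (adjusted p 0.000843). Cxcl10 stood at 73.8, 73.0 and 70.2 CPM in the controls and 408, 482 and 492 CPM with TGFβ, a rise of 6.36-fold (log2 fold change 2.67 ± 0.12, adjusted p 3.88e-07), and Ccl5, a T cell chemokine, rose 3.32-fold (adjusted p 0.000323). Cxcl5 and Cxcl1, which attract neutrophils, fell from 13.0, 12.3 and 11.7 to 0.981, 0.627 and 0.388 CPM and from 48.7, 47.5 and 46.2 to 24.7, 10.0 and 25.6 CPM (16.4-fold and 2.46-fold, adjusted p 1.02e-05 and 0.0111). Of 35 chemokine and interleukin genes 12 rose and 7 fell (54.3% called, against 30.2% of all tested genes).

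Among interferon genes, Isg15, Irf7, Usp18 and Zbp1 rose, and the class II genes H2-Aa and Cd74 fell. Isg15, a ubiquitin-like interferon product, stood at 100.3, 109 and 108 CPM in the controls and 936, 759 and 659.9 CPM with TGFβ, a rise of 7.43-fold (log2 fold change 2.89 ± 0.15, adjusted p 9.53e-07). Irf7, a master factor of type I interferon, rose from 20.1, 15.0 and 16.3 to 117, 159.6 and 133 CPM (7.97-fold), the interferon feedback protease Usp18 9.84-fold (adjusted p 2.76e-06) and the nucleic acid sensor Zbp1 14.1-fold (adjusted p 3.75e-06). Interferon-gamma is known to induce class II genes through CIITA. H2-Aa stood at 16.6, 16.2 and 18.1 CPM in the controls and 4.36, 1.16 and 1.55 CPM with TGFβ, a fall of 6.78-fold (log2 fold change -2.76 ± 0.39, adjusted p 0.000559), or 13.4-fold without TGFβ replicate 1. Cd74, the class II invariant chain, stood at 91.9, 102 and 94.5 CPM in the controls and 20.2, 36.0 and 7.77 CPM with TGFβ, a fall of 4.17-fold (log2 fold change -2.06 ± 0.36, adjusted p 0.00272). Among 50 tested genes of interferon signalling and antigen presentation 21 rose and 6 fell (54% called, against 30.2% of all tested genes). The cells had been grown with interferon-gamma until 7 days before seeding, in both groups. Complement C3 fell from 89.2, 102 and 108 to 8.50, 14.4 and 8.54 CPM (9.13-fold, adjusted p 4.02e-06) and the initiating protease Masp1 4.50-fold (adjusted p 0.000532), while clusterin (Clu), which blocks the terminal complex, rose 3.19-fold (adjusted p 3.94e-05).

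Growth factor genes were balanced, with 11 rises and 11 falls among 40 (55% called, against 30.2% of all tested genes). Pdgfb, a mitogen of mesenchymal cells, stood at 161, 141 and 124 CPM in the controls and 505, 333 and 543 CPM with TGFβ, a rise of 3.23-fold (log2 fold change 1.69 ± 0.19, adjusted p 0.000116), and the neurotrophin Bdnf rose 2.78-fold (adjusted p 6.32e-05). Fgf1 rose 4.36-fold (adjusted p 0.000274) and Angptl2 3.46-fold (adjusted p 4.71e-05). Within the epidermal growth factor family the receptor Erbb4 fell from 23.2, 21.2 and 21.1 to 3.81, 2.24 and 1.17 CPM (8.08-fold, adjusted p 3.75e-05) and the ligand Tgfa from 25.5, 19.4 and 24.0 to 5.67, 2.78 and 4.27 CPM (5.48-fold, or 11.1-fold in the thinned libraries). Fgfr2, an epithelial fibroblast growth factor receptor, fell 3.02-fold (adjusted p 4.98e-05) and the lymphatic growth factor Vegfd 5.02-fold (adjusted p 7.53e-06). In the Wnt and Notch pathways 11 of 35 rose and 8 fell (54.3% called, against the same 30.2%). Wnt7a and Wnt9a rose 4.39-fold and 3.77-fold (adjusted p 2.2e-05 and 0.000278). Among receptors Fzd2 rose from 46.6, 46.5 and 46.8 to 121, 116 and 126 CPM (2.59-fold), while Fzd4 fell from 40.7, 47.9 and 42.0 to 9.37, 9.76 and 8.93 CPM (4.61-fold) and the co-receptor Lrp5 2.67-fold (adjusted p 0.000159).

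Semaphorins, secreted or membrane guidance molecules, fell: of 12 tested, 10 were called down and 0 up, a family counted after its values were seen. Of all tested genes 14.8% were called down and 15.4% up. In the guidance list 14 of 37 genes fell and 1 rose (40.5% called, against 30.2% of all tested genes), or 17 and 5 without TGFβ replicate 2. Rises numbered 2, 2 and 3 without control replicate 1, control replicate 3 and TGFβ replicate 1. Sema5a stood at 349, 336 and 345 CPM in the controls and 109, 95.4 and 93.6 CPM with TGFβ, a fall of 3.45-fold (log2 fold change -1.79 ± 0.11, adjusted p 2.76e-06), and Sema3c fell 3.46-fold (adjusted p 1.34e-05) and Sema3e 3.28-fold (adjusted p 3.85e-05). The receptor Plxnd1, which binds Sema3e, was the gene that rose (3.28-fold, adjusted p 0.00019).

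Cyclins D1 and D2 fell, and cyclins E1 and E2 rose. Ccnd1, cyclin D1, stood at 557, 570.0 and 573 CPM in the controls and 54.2, 46.8 and 67.6 CPM with TGFβ, a fall of 10.2-fold (log2 fold change -3.35 ± 0.15, adjusted p 3.76e-07), and Ccnd2, cyclin D2, stood at 1809, 1841 and 1795 CPM in the controls and 595, 637 and 552 CPM with TGFβ, a fall of 3.05-fold (log2 fold change -1.61 ± 0.11, adjusted p 4.13e-06). Cyclins E, which act later in G1, rose, Ccne1 from 24.8, 25.0 and 20.5 to 52.0, 54.9 and 55.2 CPM (2.30-fold, adjusted p 0.000131) and Ccne2 from 20.2, 27.8 and 25.8 to 68.9, 111 and 60.6 CPM (3.29-fold, adjusted p 0.000486). For these 4 cyclins the groups did not overlap, as in 46.1% of all tested genes. The atypical repressor E2f7 rose 3.22-fold (adjusted p 0.000224), and Mxd4, an antagonist of MYC, fell 4.61-fold (adjusted p 2.36e-06). Over 48 cyclins, kinases, inhibitors and E2F genes 17 rose and 8 fell (52.1% called, against 30.2% of all tested genes). Without control replicates 1, 2 and 3, 11, 10 and 10 rose and 6, 5 and 6 fell.

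Genes of apoptosis changed in both directions. Pmaip1 (NOXA) and Bok, which promote cell death, rose 4.84-fold and 4.25-fold (adjusted p 4.54e-05 and 9.51e-06), and Mlkl, the effector of necroptosis, 2.10-fold (adjusted p 0.000523). Bbc3 (PUMA), also pro-apoptotic, fell 2.27-fold (adjusted p 0.000596), and the protective Bcl2 fell 2.03-fold (adjusted p 0.000851). In the list 10 of 35 rose and 8 fell (51.4% called, against 30.2% of all tested genes). These counts were 5 and 5, 5 and 5, 6 and 5, and 6 and 7 without control replicates 1, 2 and 3 and TGFβ replicate 1.

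Among immediate early genes and feedback genes of ERK signalling more fell than rose: of 37 in the list with AP-1 and KLF factors, 15 fell, 5 rose and 17 were not called. This is 54.1% called, against 30.2% of all tested genes. Egr1 stood at 216, 239 and 235 CPM in the controls and 59.9, 51.2 and 97.1 CPM with TGFβ, a fall of 3.39-fold (log2 fold change -1.76 ± 0.21, adjusted p 0.000231), and Fos fell from 20.2, 26.1 and 22.8 to 5.67, 3.76 and 7.38 CPM (4.43-fold, adjusted p 0.00013). Dusp6, the phosphatase that switches off ERK, fell from 145, 156 and 150.1 to 69.8, 48.7 and 52.4 CPM (2.63-fold, adjusted p 8.64e-05), and Spry2, another inhibitor, 4.79-fold (adjusted p 8.56e-05), or 7.21-fold in the thinned libraries. Klf5 and Klf13 rose 1.97-fold and 1.59-fold, as did the stress phosphatase Dusp1 (2.50-fold, adjusted p 0.0092), which stood at 103, 56.2 and 149 CPM in the TGFβ libraries. The falls and rises numbered 13 and 3 without control replicate 1, 11 and 3 without control replicate 3, and 16 and 9 without TGFβ replicate 2. In the circadian clock 8 of 17 genes fell and 2 rose (58.8% called, against 30.2% of all tested genes). Dbp, a clock output factor, stood at 47.4, 47.3 and 48.9 CPM in the controls and 13.2, 11.02 and 12.4 CPM with TGFβ, a fall of 3.93-fold (log2 fold change -1.98 ± 0.14, adjusted p 7.02e-06). The repressors Per2 and Per3 fell 2.64-fold and 2.16-fold, while the repressor Bhlhe40 rose 2.69-fold (adjusted p 9.88e-05). All libraries were taken at 1 time, so phase and level cannot be told apart.

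TGFβ replicate 2 differed from its partners in more genes than any other library did. Of 9079 genes at a mean of at least 10 CPM with TGFβ, 221 were at least 2-fold below, and 43 at least 2-fold above, both other TGFβ libraries in replicate 2. The same counts were 36 and 19 for replicate 3, 2 and 4 for replicate 1, and at most 1 for any control over 9161 genes. Of the genes counted for replicate 2, 34 were called, while 30.2% of all tested genes were. Genes picked for a wide spread within a group are less likely to be called, so that count follows in part from the choice. The 6 widest ranges within the TGFβ group, among genes of at least 50 CPM, came from low values in that library. Psap, the lysosomal prosaposin, stood at 739, 765 and 823 CPM in the controls and 852, 142 and 1449 CPM with TGFβ. Pcyox1l stood at 129, 115 and 118 CPM in the controls and 151, 13.5 and 139 CPM with TGFβ and the nuclear pore gene Nup93 at 164, 154 and 144 CPM in the controls and 211, 27.5 and 171 CPM with TGFβ. In each of these 3 genes replicate 2 lay below all controls while replicates 1 and 3 lay above them, and none was called with all libraries. Usmg5, a subunit of ATP synthase, had 63.9, 13.3 and 128 CPM with TGFβ, and the genes Gm13092 and Gm4149, known only by model names, 70.8, 13.5 and 118 and 81.7, 15.8 and 133 CPM. Without replicate 2, Psap was called up (1.48-fold, adjusted p 0.0379), and so were Pcyox1l (1.21-fold, 0.0241), Nup93 (1.25-fold, 0.0132) and Gm13092 (2.12-fold, 0.000455). Replicate 2 was the deepest of the 6 libraries and replicate 3 the shallowest, and what set replicate 2 apart was not tested.

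**Figure D4:**
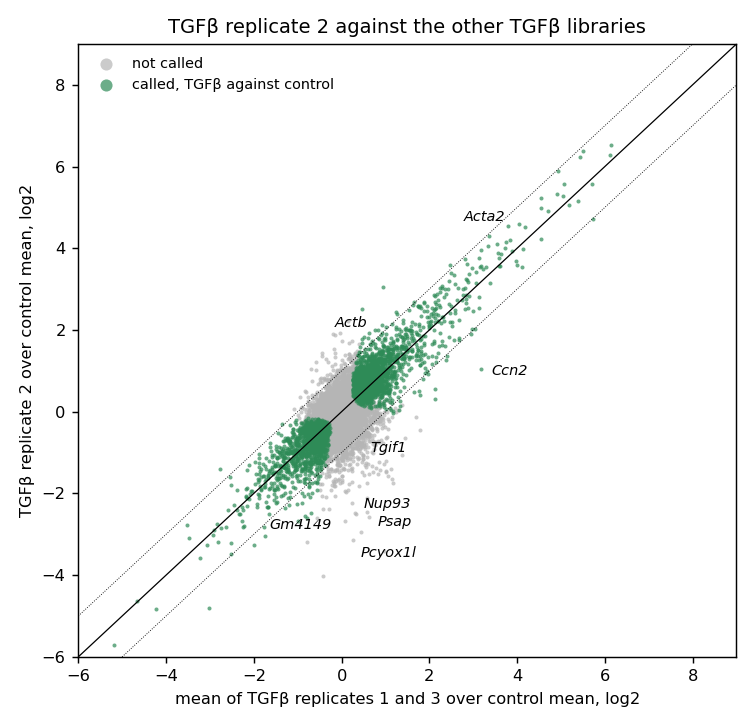
Log2 ratio to the control mean of TGFβ replicate 2 against that of the mean of TGFβ replicates 1 and 3, on log2(CPM + 0.1), for 9078 genes of at least 10 CPM with TGFβ and any control count. The solid line marks equality and dotted lines a 2-fold difference; most called genes (green) lie between the dotted lines, with Ccn2 below them, and Psap, Pcyox1l and Nup93 are low in replicate 2 alone.

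The TGFβ effect was next read in cells that also had the NNMT inhibitor, TGFβ with inhibitor against inhibitor, which shares no library with the comparison above. In the model of all 12 libraries 4933 of 13581 genes were called there (36.3%), and 4961 for TGFβ against control. The 3968 genes called with TGFβ alone come from the fit of 6 libraries, so shares that join both counts mix both fits. Of the 3968 genes called with TGFβ alone, 3871 had the same direction with the inhibitor and 3133 were called in that direction, which is 79.0% of the former and 63.5% of the calls with the inhibitor, while 7 were called in the opposite one. Of the genes that changed at least 2-fold with TGFβ alone, 1411 of 1675 (84.2%) were called in the same direction. The median log2 fold change of the 2-fold risers was 1.63 alone and 1.51 with the inhibitor, and of the fallers -1.54 and -1.51. Differences between both effects, tested as an interaction, were called for 151 genes (1.11%), of which 116 were among the 3968. Without TGFβ replicate 2 the count was 399.

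Some of the genes above responded more to TGFβ when the inhibitor was present. Acta2 had 5.40, 5.21 and 3.49 CPM with the inhibitor and 747, 619 and 658 CPM with both, so that its log2 fold change was 4.32 without the inhibitor and 7.16 with it, an interaction of 2.84 ± 0.20 (adjusted p 3.78e-07). Ankrd1 had 542, 543 and 559.6 CPM with the inhibitor and 3705, 4147 and 3594 with both, a log2 fold change of 1.42 without the inhibitor and 2.80 with it, an interaction of 1.38 ± 0.15 (adjusted p 0.000134). Postn had 3.08, 3.31 and 1.86 CPM and 83.0, 70.2 and 58.6, an interaction of 1.93 ± 0.26 (adjusted p 0.000633). For Acta2 and Postn the level without TGFβ was lower with the inhibitor than in the controls, and the level with TGFβ was also lower with the inhibitor than without it, so the larger fold came with a lower end level. For Ankrd1 the level without TGFβ was lower and the level with TGFβ higher. Col1a1 responded less, from 2.20, 5.21 and 3.39 to 45.1, 37.0 and 33.1 CPM, an interaction of -1.76 ± 0.37 (adjusted p 0.0291). Sox9 fell more with the inhibitor, from 172, 174 and 166 to 37.7, 37.9 and 39.6 CPM, an interaction of -1.51 ± 0.14 (adjusted p 1.24e-05). No difference was called for Ldlrad4, with an interaction of 0.18 ± 0.18 (adjusted p 0.8), or for Il11, with -0.95 ± 0.74 (adjusted p 0.719). Nor was one called for Ppargc1a, with 0.19 ± 0.26 (adjusted p 0.867), or for Aqp1, with -1.13 ± 0.31 (adjusted p 0.146). The error of Il11 was the widest of these 4, so its interval takes in sizeable differences in either direction.

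**Figure D5:**
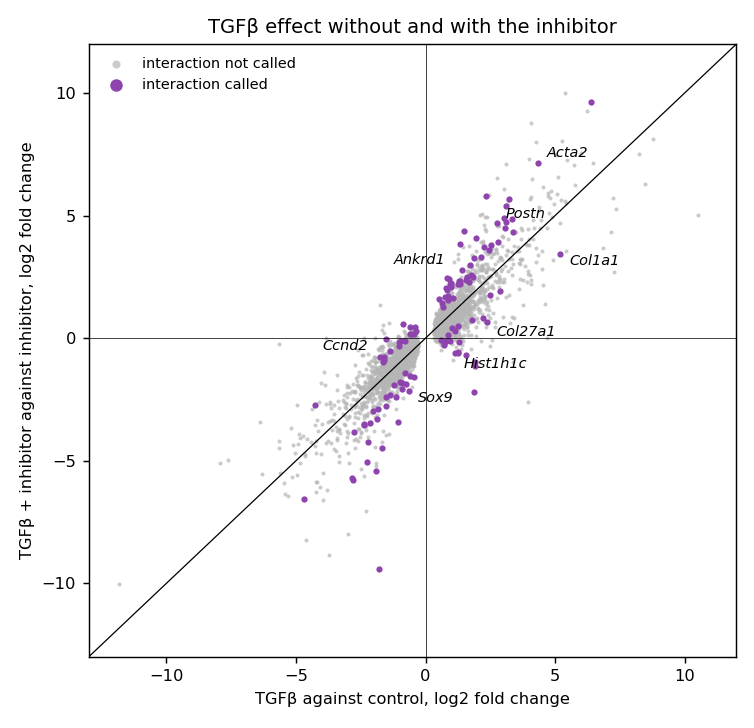
Log2 fold change of TGFβ with the inhibitor against the inhibitor, plotted over that of TGFβ against control, both from the model of 12 libraries, for the 3968 genes called with TGFβ alone. The line marks equality; 3871 genes have the same sign in both, and the 116 genes called for the interaction (purple) include Acta2, Postn and Ankrd1 above the line and Col1a1 below it.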

How the data were processed

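The authors deposited 1 table of raw counts per gene and library for 3′ QuantSeq libraries, made with STAR and HTSeq per the submitters' processing notes, which give no versions and name build GRCh38 although the identifiers are mouse genes; the strand setting is not given in the sources used here. The table held 55487 genes, 23630 with a count, and 55141 identifiers matched a symbol in GENCODE vM21. Its 5 summary rows stayed out of all totals and tests; reads outside genes made up 21.2 to 26.1% of counts in these libraries. The depth was 2584117 to 11866903 counts a library.

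The 3 control and 3 TGFβ libraries, grouped by treatment label, were fitted with edgeR 4.0.16 (R 4.3.3, limma 3.58.1): filterByExpr, trimmed-mean scaling, robust quasi-likelihood test, Benjamini-Hochberg adjustment over all tested genes. All 12 libraries entered only the interaction, the values with the inhibitor and 1 alternative, since the TGFβ group spread more than the others. Other alternatives were DESeq2 1.42.0 and its size factors, library size scaling, no filter, thinning to equal depth, limma voom with quality weights, a replicate block and leaving out each library. Scripts were tested on simulated data. Members and gene lists were chosen with earlier results of these data known.

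Genes were named by a rule: the 12 largest folds in each direction at 10 CPM or more without overlap, the 10 largest changes in CPM, up to 5 called members of each list in each direction plus its best known members, the 6 strongest interactions in each direction, and the 6 widest ranges within the TGFβ group. Prss46 and Cdh15 were added after their values were seen. Of 361 genes the rule named, 189 overlap a further gene of the annotation and in 88 that gene shares the strand, so reads may be shared. Promoter sequences are RefSeq's (GRCm38.p6). Some results are not reported here.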

Additional observations from a re-analysis of the deposited data

Results flagged for a closer look

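Of 211 genes named in the text, 35 had a TGFβ effect that differed between cells with and without the inhibitor. The test was the interaction term of edgeR's model of 12 libraries with Benjamini-Hochberg adjustment. Some of these genes were named because their interactions were among the strongest in each direction, so the count of 35 follows in part from the choice. Of all 13581 genes tested for the interaction, 151 were called (1.11%). Values below are the log2 fold change of TGFβ with the inhibitor minus that without it. Among contractile genes the rise was larger with the inhibitor for Acta2 (2.84, adjusted p 3.78e-07), Tagln (2.46, adjusted p 0.0356), Ankrd1 (1.38, adjusted p 0.000134), Actn1 (0.89, adjusted p 0.00222), Tpm1 (0.60, adjusted p 0.0302) and Cald1 (0.60, adjusted p 0.0302). Among matrix genes and their proteases it was larger for Postn (1.93, adjusted p 0.000633), Ccbe1 (1.63, adjusted p 0.000173), Fmod (1.52, adjusted p 0.000173), Mmp9 (1.42, adjusted p 0.0473), Fstl1 (1.40, adjusted p 0.0009), Adamts4 (1.27, adjusted p 0.0226), Ccn4 (1.13, adjusted p 0.00271) and Gpc1 (0.58, adjusted p 0.0363). Other genes that rose more were Ctsw (3.27, adjusted p 0.0387), Vgll3 (1.51, adjusted p 0.00702), Pdgfb (1.26, adjusted p 0.0302), Wnt7a (1.16, adjusted p 0.0365), Slc20a1 (1.15, adjusted p 0.000189) and Pmepa1 (0.94, adjusted p 0.0217). The value of Ctsw rests on 0 counts in 2 inhibitor libraries and is not a bound.

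The rise was smaller with the inhibitor for Col1a1 (-1.76, adjusted p 0.0291), Col27a1 (-1.72, adjusted p 0.00329) and Angptl2 (-1.08, adjusted p 0.0161). The fall was smaller for Gstm7 (1.56, adjusted p 0.0367), Dusp6 (0.87, adjusted p 0.0165) and Ccnd2 (0.82, adjusted p 0.0019). The fall was larger for Flrt1 (-7.64, adjusted p 0.000173), Sox9 (-1.51, adjusted p 1.24e-05), Gclc (-1.16, adjusted p 0.000173), Slco2a1 (-1.14, adjusted p 0.000225) and Adamts1 (-0.92, adjusted p 0.0226). Flrt1, a membrane adhesion protein, had 0 counts in all libraries with TGFβ and inhibitor, so its value is not a bound. The sign of the estimate differed for Hist1h2bc (1.25 without the inhibitor and -0.62 with it, a difference of -1.87, adjusted p 0.000173), Hist1h1c (1.12 without the inhibitor and -0.62 with it, a difference of -1.74, adjusted p 1.67e-05), Gm2115 (-0.86 without the inhibitor and 0.58 with it, a difference of 1.44, adjusted p 0.000173) and Adamts5 (-0.46 without the inhibitor and 0.17 with it, a difference of 0.63, adjusted p 0.0303). The interaction tests the difference between both effects, not the sign of either. Hist1h1c and Hist1h2bc, which encode a linker and a core histone, rose with TGFβ alone, to 142, 136 and 164 CPM and 49.4, 65.4 and 53.6 CPM, and with the inhibitor present had 43.4, 34.2 and 37.4 CPM and 16.3, 22.5 and 14.3 CPM.

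The call of a difference was lost without TGFβ replicate 1 for Ctsw (adjusted p 0.0575), Gpc1 (adjusted p 0.0667), Gstm7 (adjusted p 0.0533), Mmp9 (adjusted p 0.0575), Tagln (adjusted p 0.0714) and Wnt7a (adjusted p 0.0689), and without TGFβ replicate 2 for Gstm7 (0.0667). Without TGFβ replicate 3 all were kept. Scaling by library size alone lost Pdgfb (adjusted p 0.0518). The other groups were left whole. Groups of 3 libraries are too small for a test of single outlying libraries.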

How the results depend on the processing

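None of the 3968 genes called was called in the opposite direction under any of the 14 alternatives. With every library thinned to the depth of the shallowest, 2026 genes were called, 993 up and 1033 down, 480 and 586 of them at least 2-fold, and 1961 of the 3968 were among them. Leaving out 1 library at a time gave 2506 to 5216 called genes, 1215 to 2653 up and 1291 to 2563 down, with 680 to 793 up and 814 to 968 down at least 2-fold. The lowest counts came without a control, the highest without TGFβ replicate 2. All 12 libraries in 1 model gave 4961 calls, DESeq2 3929, limma voom with quality weights 5631, no filter 4627 and DESeq2 size factors 3978. Pcyox1l and Nup93, not called with all libraries and estimated as falling, were called up without TGFβ replicate 2 (leaving out 1 library gave log2 fold changes of -0.76 to 0.28 and -0.71 to 0.32). Replicate numbers did not pair the libraries (correlation of deviations 0.03, 0.08 and 0.01 for the same numbers), and the block gave 3760 calls. The interaction had 151 calls, 266 with DESeq2, 163 with library size scaling, 119 with the replicate block (which lost Adamts4, Ctsw, Gpc1, Gstm7, Mmp9, Tagln and Wnt7a, adjusted p 0.0507 to 0.0684), and 162 to 399 without 1 TGFβ library, the highest without replicate 2. The causes of these shifts were not tested. The shallowest library sets the depth limit, since 3 counts there equal 1.16 CPM.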
